A study of Mus musculus with 2 samples.

Results

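The genes described here are 9 feedback inhibitors of mitogen-activated protein (MAP) kinase signalling: the dual-specificity phosphatases Dusp1, Dusp2, Dusp4, Dusp5, Dusp6, Dusp10 and Dusp16 and the Sprouty genes Spry1 and Spry2, of 32285 genes in the count matrices. They were chosen by name from earlier results of these cells, in which their levels across T cell classes and their correlation with Nr4a1 were already known. Levels, class differences and Nr4a1 correlations below are therefore descriptions and carry no test. The cells came from tumours grown from MB49, a mouse bladder cancer line, in C57BL/6J hosts of both sexes that were 12 to 14 weeks old, and were collected at day 14. The labels name no further treatment or allele. Tumours were digested with collagenase at 37°C, sorted and run through a droplet assay that tags transcripts at their 5′ end with unique molecular identifiers (UMIs). There was 1 library per sex, the number of mice behind each is not stated, and no value below has a replicate check. Pairs of values are given as female, then male.

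Cells were assigned to 4 classes from a few marker UMIs per cell. Cd8 cells held at least 2 UMIs of Cd8a and Cd8b1 and none of Foxp3, and were split by whether they held a UMI of Havcr2, which encodes the inhibitory receptor TIM-3. They numbered 1271 Havcr2+ and 974 Havcr2- cells in the female library and 930 and 1010 in the male library. Regulatory T cells (Treg) held at least 1 UMI of Foxp3, the lineage factor of this class, and none of Cd8a or Cd8b1, which gave 233 female and 345 male cells. Other Cd4 cells held a Cd4 UMI and none of Foxp3, Cd8a or Cd8b1, which gave 248 and 231 cells. Most classed cells were thus Cd8 cells, although the labels state a sort of CD4+ cells. All 5 T cell genes checked (Cd3d, Cd3e, Cd3g, Trac and Trbc2) were detected in each class and library, with a summed level of 2882 to 4309 counts per 1000000 UMIs (CPM). Markers of other cells were present too: the 13 myeloid genes summed to 985 and 1017 CPM in female and male Treg cells and to 86.8 to 261 CPM elsewhere. Most of the Treg sum came from Cd74 (626.5 and 808 CPM) and H2-Aa (175 and 182.5 CPM). Lyz2 stood at 152 and 0.82 CPM there, and 1 barcode per library held 25.7% and 23.4% of the sum. The 4 epithelial genes stood at 662 CPM in female Treg cells, 139 CPM in female Havcr2- Cd8 cells and 1.26 to 22.5 CPM in the other classes. A single barcode held 50.3% of the female Treg sum, and another held 74.0% of the female Havcr2- Cd8 sum. The libraries shared 16 barcode sequences. Havcr2+ Cd8 cells were the deepest class, with a median of 13938 and 13040.5 UMIs, compared with 7141.5 and 6861 in Havcr2- Cd8 cells. Treg cells had 6426 and 5993, and other Cd4 cells 5204.5 and 5219. Intervals in parentheses are exact 95% intervals that cover counting error only.

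MAP kinases are switched on by phosphorylation of a threonine and a tyrosine, and dual-specificity phosphatases remove both groups. Many of these phosphatases are themselves transcribed in response to the kinases they switch off, which makes them negative feedback regulators, and their transcripts are often read as a trace of recent signalling through the T cell receptor. Sprouty proteins act higher up, between surface receptors and the kinase Raf, and limit activation of the kinase ERK. Nr4a1, an orphan nuclear receptor, is an immediate early gene of T cell receptor signalling and serves here as the comparison transcript.

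Promoter windows of 250 bases before to 50 bases after the RefSeq start were on hand for 8 of the 9 genes (GRCm38.p6). Dusp4 was not matched. Exact matches to 7 motifs were searched on both strands. The palindromic cAMP response element TGACGTCA, bound by factors of the CREB family, was found in Dusp1 among the 8 genes and in 1.79% of all 32851 promoters. The CArG box, bound by serum response factor (SRF), was found at 2 adjacent places in Dusp5 and in 1.63% of all promoters. These 2 windows are shown because they hold the least common of the motifs that matched, in 2 genes whose levels are followed against Nr4a1 below. The motifs are in capitals, both sequences run 5′ to 3′ on the strand of the gene, and the motifs begin 143 bases (Dusp1) and 82 and 72 bases (Dusp5) before the start.
Dusp1, minus strand, chr17:26508583-26508642: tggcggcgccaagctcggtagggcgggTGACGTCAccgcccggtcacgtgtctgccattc
Dusp5, plus strand, chr19:53529045-53529104: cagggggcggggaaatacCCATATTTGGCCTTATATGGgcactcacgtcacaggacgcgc
Spry2 held the NFAT core GGAAAA and the ETS core CCGGAA, which are common short words (23.4% and 14.9% of all promoters). None of the 8 windows held the AP-1 site TGANTCA (7.81% of all), the Nr4a1 site AAAGGTCA (1.51%) or the EGR site GCGTGGG (5.04%). A match is a match of letters only.

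Dusp1 encodes a nuclear phosphatase of p38, JNK and ERK. Its level in female cells was 163 CPM in Havcr2+ Cd8, 290.5 CPM in Havcr2- Cd8, 558 CPM in Treg and 465 CPM in other Cd4 cells. In male cells it was 231.5, 357.5, 953 and 753 CPM. Treg cells were highest and Havcr2+ Cd8 cells lowest in both libraries, the order of the 4 classes was the same, and no neighbouring intervals overlapped. The Dusp1 gene model (chr17:26505590-26562128, GRCm38, minus strand) overlaps Ergic1 on the opposite strand, and the strand setting of the counting is not given in the sources used here, so reads of the pair may not be fully separated.

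Dusp2 (chr2:127336159-127338376, GRCm38) encodes a nuclear phosphatase named for its induction in activated lymphocytes. Its level was 365 CPM (Havcr2+ Cd8), 605 CPM (Havcr2- Cd8), 129.8 CPM (Treg) and 564 CPM (other Cd4) in the female library and 477.5, 734.5, 239.8 and 480 CPM in the male library. Treg cells stood apart at the low end in both. A Dusp2 UMI was seen in 47.2% of female and 55.9% of male Treg cells, against 72.2% and 66.7% of other Cd4 cells. After thinning to 3000 UMIs, which leaves out cells with fewer, the expected shares were 28.4% and 39.1% in Treg and 59.7% and 54.6% in other Cd4 cells. In keratin-rich barcodes (at least 10 UMIs of Krt8 and Krt18 and none of Cd3e), taken as cells that should lack this lymphoid gene, 13.8% and 25.0% held a Dusp2 UMI. These were 29 and 24 barcodes with a median of 52964 and 44362.5 UMIs. The Treg shares before thinning were above theirs. After thinning the keratin-rich shares were 1.11% and 1.77%. Thinning kept a smaller part of these deeper barcodes than of Treg cells, so the thinned shares are not a like measure of background.

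Dusp4 (chr8:34807297-34819894, GRCm38), a nuclear phosphatase of ERK and JNK, had the opposite pattern within Cd4 cells. It reached 235 CPM in female and 215 CPM in male Treg cells. The other classes lay between 63.9 and 101.5 CPM: 95.9 and 101.5 CPM in Havcr2+ Cd8, 90.9 and 63.9 CPM in Havcr2- Cd8, and 95.2 and 92.9 CPM in other Cd4 cells of the female and male libraries. The Treg intervals did not overlap those of any other class.

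Dusp5 (chr19:53529109-53542431, GRCm38), a nuclear phosphatase selective for ERK, varied least between classes of the 8 genes that passed the minimum level, with a highest-to-lowest ratio of 1.78 and 2.07. Its level was 240.5 and 229.5 CPM in Havcr2+ Cd8, 250.2 and 194 CPM in Havcr2- Cd8, 372 and 378 CPM in Treg, and 428 and 400 CPM in other Cd4 cells (female, then male). The Cd4 classes were above the Cd8 classes in both libraries, and the intervals of the Cd4 classes overlapped each other.

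Dusp6 (chr10:99263231-99267489, GRCm38), a cytoplasmic ERK phosphatase, was sparse. It stood at 12.5 CPM (11.1 to 13.9) and 18.8 CPM (16.8 to 21.02) in Havcr2+ Cd8 cells, 14.6 CPM and 15.3 CPM in Havcr2- Cd8 cells, and 24.0 CPM (17.0 to 32.9) and 14.5 CPM (8.87 to 22.4) in other Cd4 cells. Treg cells gave 16.0 (10.9 to 22.6) and 5.73 (3.13 to 9.61) CPM. The female Treg value rested on 1 barcode: it held 26 of the 32 UMIs (81.2%), together with 96308 UMIs in all, 636 of them from Krt8 and Krt18, and 0 from the 5 T cell genes. Without it the female Treg level was 3.15 CPM, and Treg was then the lowest class for Dusp6 in both libraries. Keratin-rich barcodes without Cd3e as a group (29 female and 24 male, whether or not they fell in a class) held Dusp6 at 84.7 CPM (70.2 to 101) and 72.5 CPM (57.8 to 89.9), above every T cell class.

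Dusp10, which acts on JNK and p38, was highest in other Cd4 cells, at 217.5 and 236 CPM. It stood at 86.9 and 81.8 CPM in Treg, 86.2 and 94.0 CPM in Havcr2- Cd8 and 53.0 and 56.5 CPM in Havcr2+ Cd8 cells. The 2 libraries differed little: the female over male log2 ratio was between -0.13 and 0.09 in each of the 4 classes. Its gene (chr1:184013302-184075636, GRCm38) overlaps 1700056E22Rik on the opposite strand.

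Dusp16, a further phosphatase of JNK and p38, was highest in Treg cells, at 31.9 (24.6 to 40.8) and 57.7 (48.6 to 68.0) CPM. Havcr2+ Cd8 cells had 22.0 and 25.3 CPM, Havcr2- Cd8 cells 17.8 and 19.5 CPM, and other Cd4 cells 10.7 CPM (6.24 to 17.2) and 26.9 CPM (18.9 to 37.0). Treg cells led in both libraries, and the position of other Cd4 cells differed between them. Dusp16 (chr6:134715468-134792625, GRCm38) overlaps the antisense gene Gm36328.

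Spry1 (chr3:37639947-37644598, GRCm38) was highest in other Cd4 cells, at 47.9 (37.8 to 59.97) and 38.5 (28.8 to 50.3) CPM. It was lowest in Treg cells, at 6.49 CPM (3.46 to 11.1) from 13 UMIs and 12.3 CPM (8.28 to 17.5) from 30 UMIs. Cd8 cells lay between, at 18.1 and 17.7 CPM (Havcr2+, Havcr2-) in the female and 23.6 and 25.2 CPM in the male library.

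Spry2 (chr14:105891947-105896819, GRCm38) had the fewest UMIs of the 9 and stayed under the minimum level used for calls (10 CPM in a compared group and 20 UMIs over both libraries). In Cd8 cells it was nevertheless counted 147 times in the female and 137 times in the male library, 4.31 CPM (3.64 to 5.07) and 5.54 CPM (4.65 to 6.54). Among all Cd4 cells, Treg and other together, the female library held 2 UMIs and the male library 0. At the Cd8 level 15.5 and 21.1 UMIs would have been counted there. The ratio of Cd8 over Cd4 cells was 7.74-fold in the female library (2.10 to 64.5), and 7.05-fold in the male library with its 0 set to 3 counts, with an exact lower limit of 5.66-fold. Spry2 was the only one of the 9 genes with 0 UMIs in any of the 4 classes, and keratin-rich barcodes held it at 5.64 CPM (2.44 to 11.1) and 10.5 CPM (5.42 to 18.3).

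**Figure D1:**
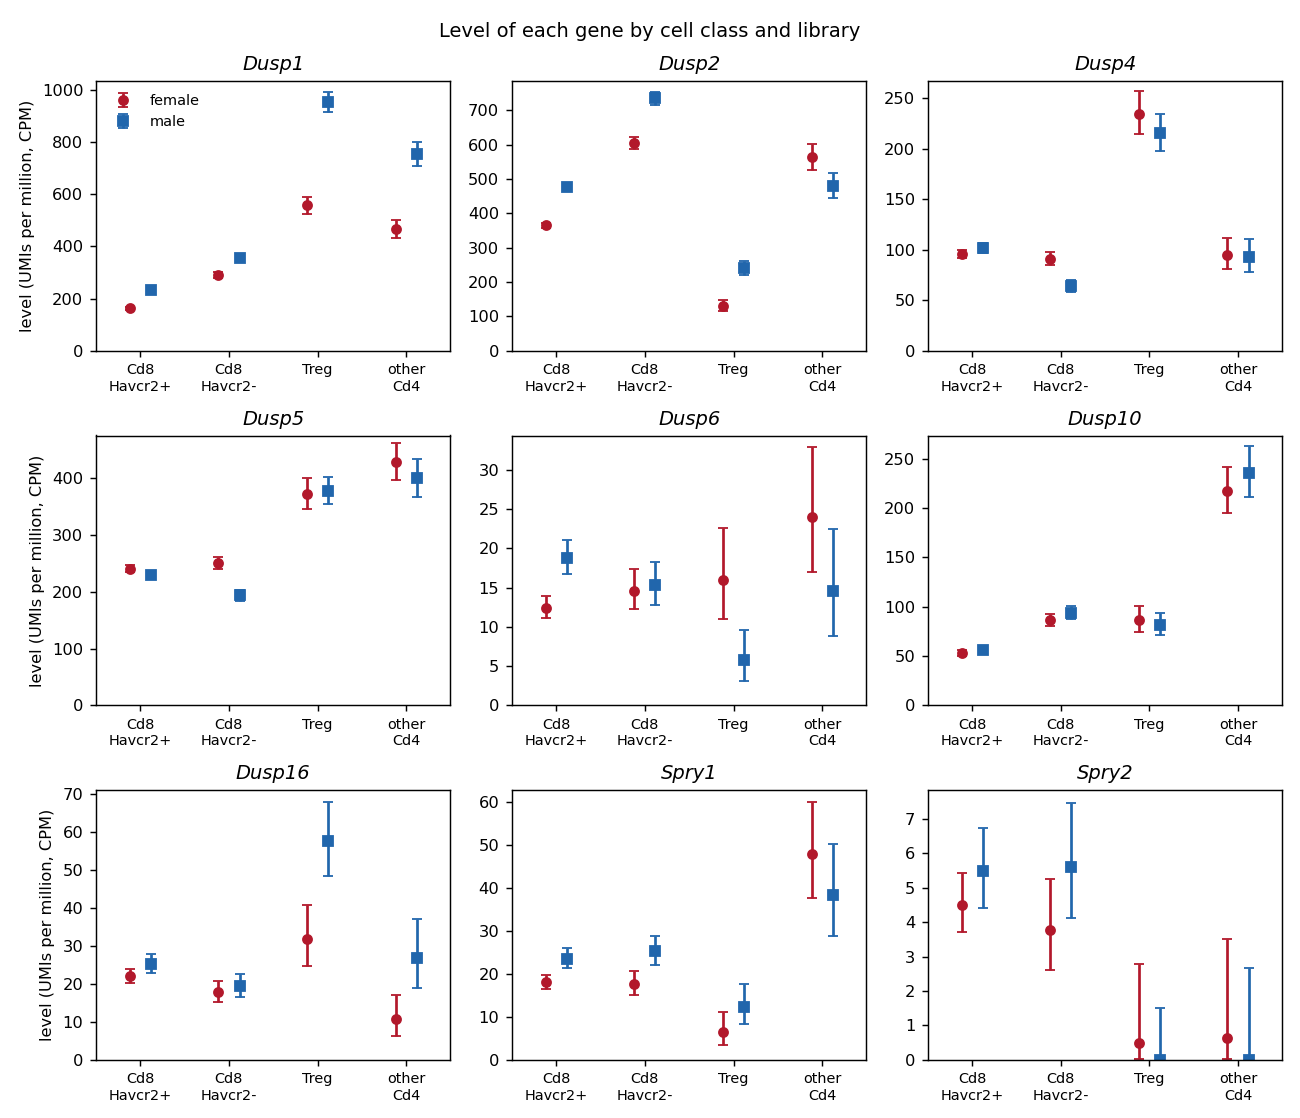
Level of each of the 9 genes (CPM of summed UMIs, vertical axis from 0) in the 4 cell classes; circles are the female and squares the male library, and bars are exact 95% counting intervals. Dusp4 and Dusp16 peak in Treg cells, Dusp10 and Spry1 in other Cd4 cells, Dusp2 is lowest in Treg cells, and Spry2 is at 0.499 and 0.631 CPM in female and 0 in male Cd4 classes.

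Within the Cd4 cells, 5 of the 8 measured genes differed by at least 1.5-fold in the same direction in both libraries (the rule for a called difference), against 18.1% of all 8625 genes measured in that comparison. Dusp4 and Dusp16 were higher in Treg cells (11.6% of all genes were), and Dusp2, Dusp10 and Spry1 were lower (6.5%). The log2 ratio of Treg over other Cd4 cells for Dusp4 was 1.30 (1.03 to 1.58) and 1.21 (0.93 to 1.503). For Dusp16 it was 1.58 (0.79 to 2.44) and 1.104 (0.57 to 1.67). Dusp2 had -2.12 (-2.32 to -1.92) and -1.002 (-1.17 to -0.84), Dusp10 had -1.32 (-1.60 to -1.06) and -1.53 (-1.79 to -1.27), and Spry1 had -2.88 (-3.86 to -2.02) and -1.65 (-2.34 to -0.97). Dusp1 (0.26 and 0.34) and Dusp5 (-0.20 and -0.08) stayed within 1.5-fold. Dusp6 was lower in both libraries (-0.58 and -1.34), just short of the rule in the female library, where 1 keratin-rich barcode held most of its UMIs. It was called lower under 9 of the 14 alternatives, with a mean log2 ratio of -2.04 without the Dusp6 UMIs of the richest barcode. The median log2 ratio over the 8 genes was -0.55, against 0.09 over all measured genes. All 5 calls were kept under each of the 14 alternatives tried, which included leaving out either library and removing barcodes with markers of other cells. The myeloid level given above was higher in Treg cells too. The 5 calls were as stated without barcodes with 2 or more UMIs of other cell types. That filter leaves barcodes with fewer such UMIs in, and the part of admixture in these calls was not tested.

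Against all Cd4 cells together, Cd8 cells had lower levels of 4 of 8 measured genes, Dusp1, Dusp4, Dusp5 and Dusp10, and 0 were higher, where 13.1% of 8352 genes were lower by this rule, 6.13% higher and 19.3% called in either direction. The log2 ratio of Cd8 over Cd4 for Dusp1 was -1.39 (-1.47 to -1.32) and -1.68 (-1.74 to -1.62). For Dusp10 it was -1.23 and -0.99, for Dusp4 -0.87 and -0.95, and for Dusp5 -0.71 and -0.83. The Cd4 sum pools unlike classes for Dusp4 and Dusp10. Dusp4 in other Cd4 cells (95.2 and 92.9 CPM) was near Havcr2+ Cd8 cells (95.9 and 101.5 CPM). Havcr2- Cd8 cells had 90.9 and 63.9 CPM and Treg cells 235 and 215 CPM. Dusp10 in Treg cells (86.9 and 81.8 CPM) was near Havcr2- Cd8 cells (86.2 and 94.0 CPM). Havcr2+ Cd8 cells had 53.0 and 56.5 CPM and other Cd4 cells 217.5 and 236 CPM. Dusp2 alone of the 8 was higher in Cd8 cells in both libraries, by a log2 of 0.41 and 0.79, and was not called. Dusp6 and Spry1 had opposite signs in the 2 libraries. The median of the 8 genes was -0.66, against -0.12 over all measured genes. Trimmed-mean (TMM) scaling moves every gene up by 0.22 (female) and 0.20 (male) on the log2 scale in this comparison, and Dusp5 then fell short of the call while Dusp2 was called higher (mean log2 0.81). Cd8 cells were also deeper (a median of 10507 and 8859.5 UMIs, against 5944 and 5629). With cells thinned to 3000 UMIs Dusp5 was likewise not called, while Dusp1, Dusp4 and Dusp10 were. Dusp2 was then called higher (0.92) and Dusp16 lower (-0.93), and equal weight per cell also called Dusp2 higher (0.89). The male library alone called 7 genes, adding Dusp2 and Dusp6 as higher and Dusp16 as lower.

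**Figure D2:**
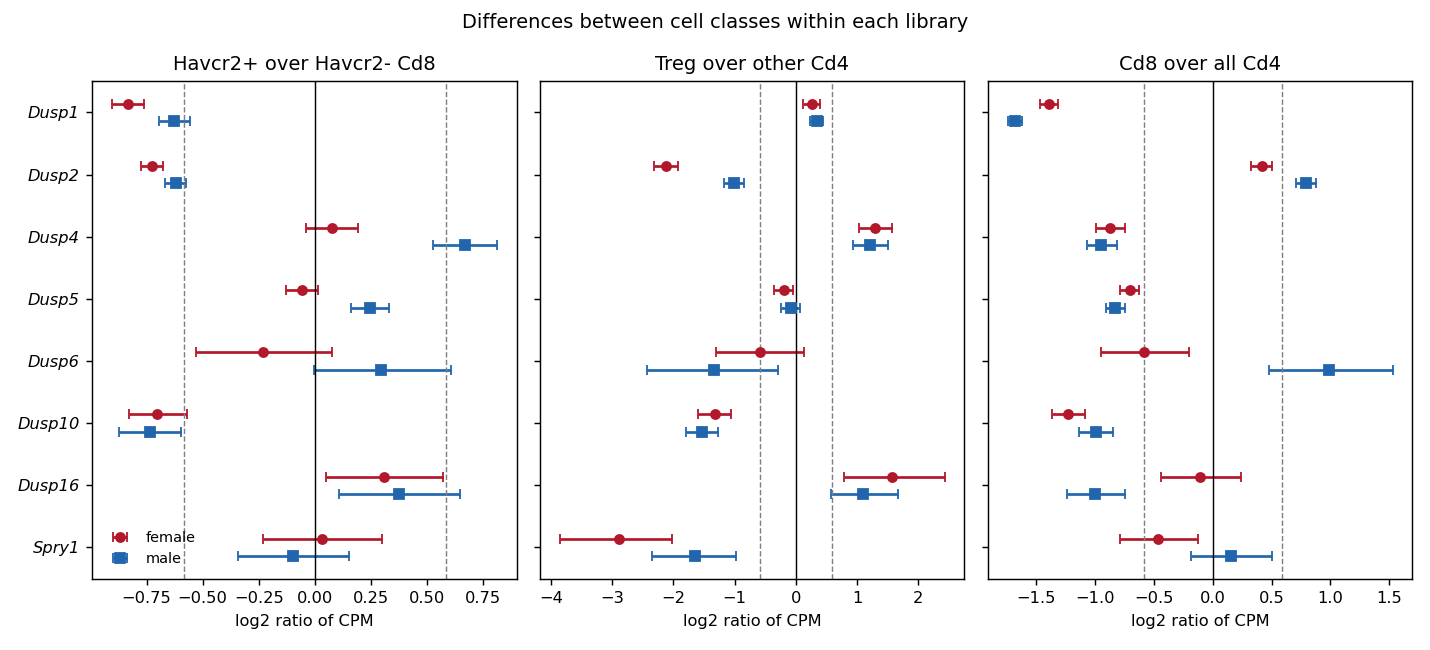
Log2 ratio of CPM between cell classes within each library for the 8 measured genes (horizontal axes differ between panels), with exact 95% counting intervals; circles are the female and squares the male library, and dashed lines mark 1.5-fold. Treg cells separate Dusp4 and Dusp16 (right) from Dusp2, Dusp10 and Spry1 (left), and Dusp1 is lowest in the Cd8 over Cd4 panel at -1.39 and -1.68.

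Within Cd8 cells, 3 of 8 measured genes were lower in Havcr2+ than in Havcr2- cells by the same rule: Dusp1, Dusp2 and Dusp10 (4.52% of 7971 genes were lower, 4.49% higher and 9.01% called in either direction). The log2 ratio was -0.83 (-0.91 to -0.76) and -0.63 (-0.70 to -0.56) for Dusp1, -0.73 (-0.78 to -0.68) and -0.62 (-0.67 to -0.57) for Dusp2, and -0.70 (-0.83 to -0.57) and -0.74 (-0.87 to -0.60) for Dusp10 in the female and male libraries. None of the 8 was called higher. Dusp16 (0.31 and 0.37) and Dusp4 (0.08 and 0.67) were higher in both libraries without meeting the rule. The median log2 ratio of the 8 genes was -0.0007, against 0.04 over all measured genes. These levels are shares of a cell's UMIs, and Havcr2+ cells held more UMIs. Counted per cell, the order was turned: Dusp1 gave 3.21 UMIs per Havcr2+ and 2.70 per Havcr2- cell in the female library and 4.08 and 2.96 in the male library, and Dusp2 gave 7.20 against 5.61 and 8.41 against 6.08.

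Dusp1, Dusp2 and Dusp5 took a smaller share of the UMIs the deeper the Cd8 cell. When the Cd8 cells of each library were ranked by total UMIs and split into 3 groups of near-equal size, Dusp2 in Havcr2- cells went from 953 CPM in the shallow group through 625 CPM to 281 CPM in the deep group (female), and from 1097 through 785 to 419 CPM (male). Dusp1 in the same cells went from 452 through 277.5 to 163 CPM and from 517 through 343 to 259.5 CPM. Within a depth group, the Havcr2 difference of Dusp2 lay between -0.20 and 0.29 on the log2 scale, of mixed sign and under 1.5-fold in all 6 comparisons. That of Dusp1 lay between -0.56 and 0.17, lower in 5 of 6 and never past 1.5-fold. Dusp10 was lower in Havcr2+ cells in 6 of 6 comparisons, with log2 ratios of -0.43, -0.83 and -0.43 (shallow, middle, deep) in the female library. In the male library they were -0.47 (shallow) and -0.43 (deep), and the middle group had 50.1 against 100.1 CPM. Dusp5, which stayed within 1.5-fold in the sums (-0.06 and 0.25), was higher in Havcr2+ cells in 6 of 6, by 0.30, 0.38 and 0.65 in the female and 0.59, 0.66 and 0.79 in the male library. Dusp4 and Spry1 were higher in Havcr2+ cells among shallow cells (log2 1.01 and 2.21 for Dusp4, 1.61 and 2.05 for Spry1) and not among deep ones (-0.38 and -0.07 for Dusp4, -0.49 and -1.06 for Spry1). With cells thinned to 3000 UMIs before the Havcr2 split, none of the 8 genes was called, and Dusp1, Dusp2 and Dusp10 had a log2 ratio of -0.32, -0.35 and -0.32 as the mean of both libraries. Equal weight per cell called 1 gene, Dusp10. The split by depth was chosen after these values were seen.

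**Figure D3:**
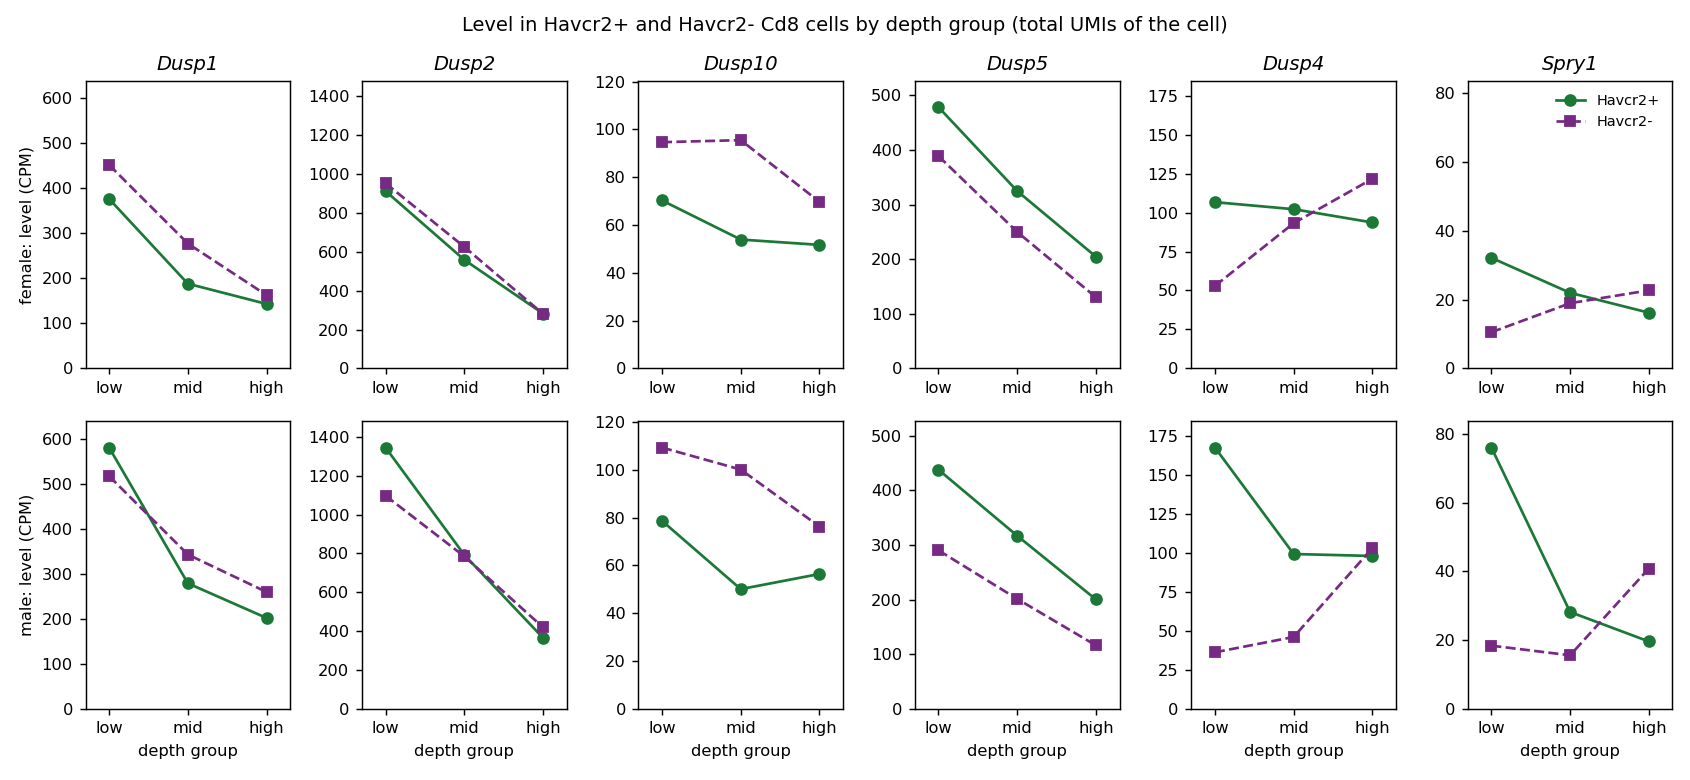
Level (CPM, vertical axis from 0, the same for both libraries) of 6 genes in Havcr2+ (circles, solid line) and Havcr2- (squares, dashed line) Cd8 cells, by group of total UMIs per cell (low, mid, high), female above and male below. Both Dusp2 lines fall with depth and stay within 1.5-fold of each other, Dusp10 is lower and Dusp5 higher in Havcr2+ cells in all 6 pairs, and the Dusp4 and Spry1 lines cross.

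Other genes of the pathway give the setting. Of 27 genes of the MAP kinase cascade itself, 24 or 25 were measured. None was called between Havcr2+ and Havcr2- Cd8 cells (median log2 0.09) or between Treg and other Cd4 cells (median 0.01), and 6 of 25 were lower in Cd8 than in Cd4 cells (13.1% of all genes were): Map3k5, Map3k8, Map2k3, Mapk8, Mapk11 and Mapkapk2. Of 25 immediate early and ERK target genes, 7 of 20 measured were lower in Havcr2+ than Havcr2- Cd8 cells (Fos, Jun, Ier2, Ier5, Myc, Zfp36 and Zfp36l1) and none higher (4.52% and 4.49% of all genes were), with a median of -0.49. Etv5 and Etv4, genes of this list under the minimum level, went the other way, with mean log2 ratios of 1.86 and 1.13. In Cd8 over Cd4 cells 7 of 21 were lower and 1 higher (13.1% and 6.13% of all genes), with a median of -0.43. The transcription factor gene Fos had -1.30 in Havcr2+ over Havcr2- Cd8 cells as the mean log2 ratio of both libraries. Zfp36, which encodes an mRNA decay factor, had -1.22 in that comparison. Within the depth groups Fos had -0.66, -1.10 and -0.44 (shallow, middle, deep) in the female library. In the male library it had -0.01, -0.90 and -0.71. Nr4a1, also of this list, had -0.10, -0.10 and -0.20 in the female and 0.99, 0.62 and 0.003 in the male library. The other genes of the list were not split by depth. In Cd8 over Cd4 cells Fos had -1.41 and Zfp36 -1.40. In Treg over other Cd4 cells, 1 of 22 was higher (Ier3, 2.53) and 4 were lower (Ier2, Nr4a2, Btg2 and Atf3), where 11.6% and 6.5% of all genes were. Among 14 other brakes on Ras and ERK, Rasa3, a Ras GTPase activator, and Dgka, a kinase that removes diacylglycerol, were lower in Havcr2+ Cd8 cells (-1.06 and -0.82), and Dok1, an adaptor that recruits RasGAP, was higher in Treg cells (1.23). Spry3, Spry4 and Spred3 did not reach the minimum level in any of the 3 class comparisons. The remaining phosphatases of the family, Dusp7, Dusp8 and Dusp9, were mostly under the minimum level. Dusp7 alone passed it, in the comparisons that include Cd4 cells, and was lower in Cd8 than Cd4 cells (-1.39). Of 10 atypical dual-specificity phosphatases, which lack the kinase-binding domain, 5 were measured in each comparison: Dusp14 was higher in Havcr2+ Cd8 cells (0.78) and Dusp22 higher in Cd8 than Cd4 cells (1.11).

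Correlation with Nr4a1 across cells was computed within each class and library as Pearson's r of log counts per 10000 UMIs. Dusp5 was the only one of the 9 to reach 0.2 in both libraries in all 4 classes. Its r was 0.27 and 0.27 (female, male) in Havcr2+ Cd8, 0.35 and 0.38 in Havcr2- Cd8, 0.22 and 0.25 in Treg, and 0.30 and 0.40 in other Cd4 cells. It ranked 2 of 8149 genes in Havcr2- Cd8 cells and 2 of 7198 in other Cd4 cells by the mean of both libraries, 38 of 9532 in Havcr2+ Cd8 and 27 of 7885 in Treg cells. Dusp1 had 0.32 and 0.38 and Dusp2 had 0.27 and 0.35 in Havcr2+ Cd8 cells. In Havcr2- Cd8 cells Dusp2 had 0.25 and 0.24, and Dusp1 had 0.17 and 0.30. The count reaching 0.2 in both libraries was thus 3 of 9 in Havcr2+ Cd8 (0.808% of all genes did), 2 in Havcr2- Cd8 (0.43%), 1 in Treg (0.304%) and 1 in other Cd4 cells (0.32%). Dusp10 and Dusp16 stayed between -0.08 and 0.13 everywhere. The points of one value are cells of 1 library, which differ in depth, and thinning to 3000 UMIs lowered most values. Dusp5 then had 0.19 and 0.20 in Havcr2+ Cd8, 0.26 and 0.31 in Havcr2- Cd8, 0.14 and 0.23 in Treg, and 0.14 and 0.30 in other Cd4 cells, so that it reached 0.2 in both libraries in Havcr2- Cd8 cells only. Dusp2 reached it after thinning in Havcr2+ Cd8 (0.21 and 0.23), Havcr2- Cd8 (0.20 and 0.21) and Treg cells (0.21 and 0.23). Between 0.14 and 0.40, these are weak to moderate correlations in sparse counts.

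**Figure D4:**
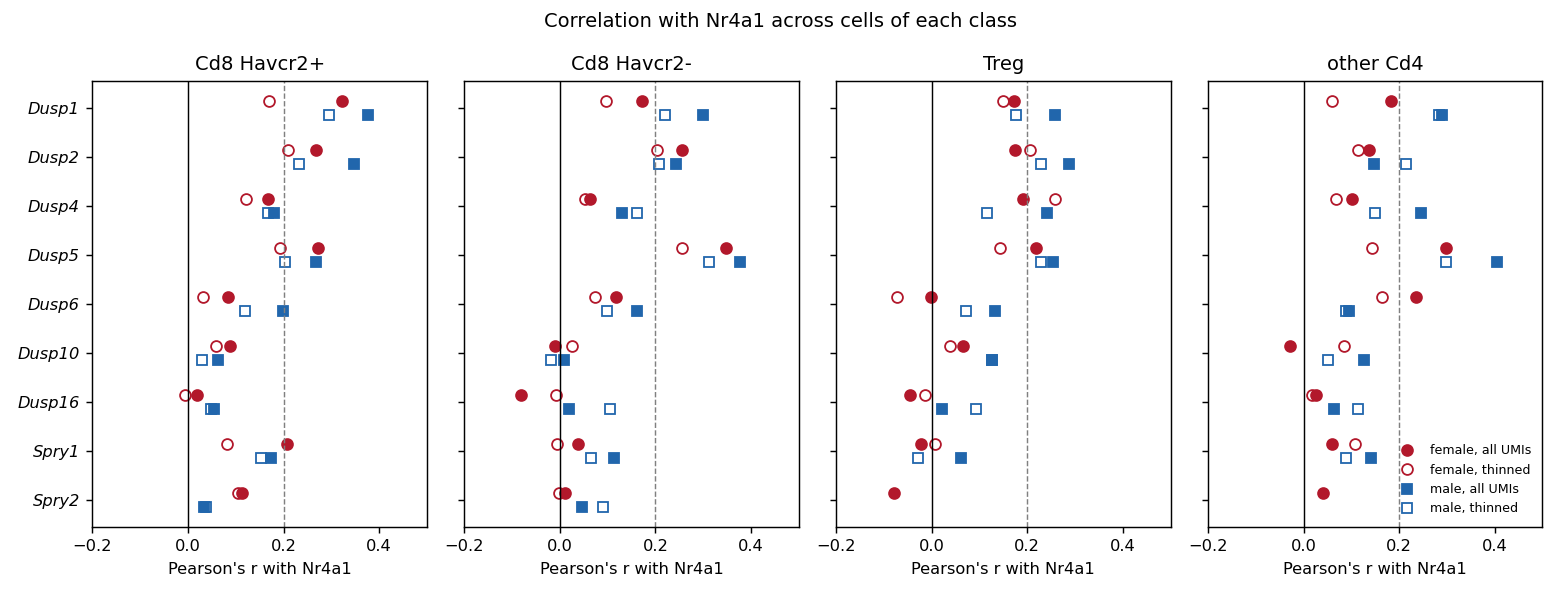
Pearson's r with Nr4a1 across the cells of each class for the 9 genes; circles are the female and squares the male library, filled for all UMIs and open for cells thinned to 3000 UMIs, and the dashed line is at 0.2. With all UMIs Dusp5 lies at or right of 0.2 in every panel, up to 0.40, and Dusp10 and Dusp16 lie near 0. Spry2 has no value where it had no UMI.

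The size of these relations showed in the levels. In Cd8 cells thinned to 3000 UMIs, Dusp5 stood at 248 CPM in female cells with no Nr4a1 UMI, 361 CPM with 1, 475 CPM with 2 to 4 and 741 CPM with 5 or more, and at 181, 285, 363 and 536 CPM in the male library. Dusp1 went from 234 to 731 CPM and from 248 to 1036 CPM between the lowest and highest of these groups, and Dusp2 from 504 to 1657 CPM and from 632 to 1618 CPM. Dusp10 did not follow, at 64.7 to 94.5 CPM in the female and 76.6 to 84.8 CPM in the male library. Cells with many Nr4a1 UMIs had been shallower before thinning, with a median of 5204 and 5865.5 UMIs at 5 or more against 11631 and 9958.5 at none. Within each of the 3 depth groups, cells with at least 2 Nr4a1 UMIs still had the higher level: the log2 ratio over cells with none was 0.51 to 1.30 for Dusp5, 0.67 to 1.43 for Dusp1 and 0.60 to 0.86 for Dusp2 over the 6 comparisons. Dusp4 was likewise higher in 6 of 6, by 0.18 to 2.16, and Spry1 by 0.91 to 1.91 in the 5 comparisons in which the Nr4a1 group held a Spry1 UMI. The lowest ratio of each had an interval that included 0: -0.61 to 0.89 for Dusp4 (deepest female group) and -0.39 to 2.18 for Spry1 (shallowest female group). In the deepest female group, cells with at least 2 Nr4a1 UMIs held 0 Spry1 UMIs, against 24 (15.0 CPM) in cells with no Nr4a1 UMI. The upper limit of the log2 ratio there was 0.66, below the range of the 5.

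Cd8 cells were also grouped by Ifng, the gene of the effector cytokine interferon gamma. Ifng was picked after it was seen among the genes most like Spry1 and Dusp6, so these levels describe the size of that relation and do not support it. In thinned Cd8 cells Spry1 stood at 12.0 CPM (9.19 to 15.5) in the female library and 12.0 CPM (8.78 to 15.9) in the male library where no Ifng UMI was counted. It stood at 108 CPM (57.7 to 185) and 180 CPM (129 to 244) in the 40 female and 76 male cells with 5 or more. Within depth groups, cells with at least 2 Ifng UMIs had more Spry1 in 6 of 6 comparisons, by a log2 of 1.82 to 3.36. Dusp6 went from 10.4 to 41.7 CPM (13.5 to 97.2) and from 15.5 to 52.6 CPM (27.2 to 91.9), and its within-group log2 ratios ranged from 0.56 to 2.44, positive in 6 of 6 with 3 intervals that include 0. Other members were higher with Ifng too: the within-group log2 ratios were 0.37 to 1.57 for Dusp1, 0.40 to 1.96 for Dusp4 and 0.03 to 0.79 for Dusp2, positive in 6 of 6, and -0.04 to 0.87 for Dusp5. Dusp10 showed no such trend, at 72.3 CPM without and 66.7 CPM with 5 or more Ifng UMIs in the female and 87.2 and 83.3 CPM in the male library. The effector chemokine genes Ccl3 and Ccl4 and Ifng were themselves higher in Havcr2+ Cd8 cells (mean log2 2.41, 1.36 and 1.35). Spry1 had 0.03 and -0.10 in the same sums, which pool depth groups of unlike sign. Its log2 ratio was 1.61 and 2.05 in shallow, 0.21 and 0.85 in middle, and -0.49 and -1.06 in deep cells. The effector genes were not split by depth in this comparison.

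**Figure D5:**
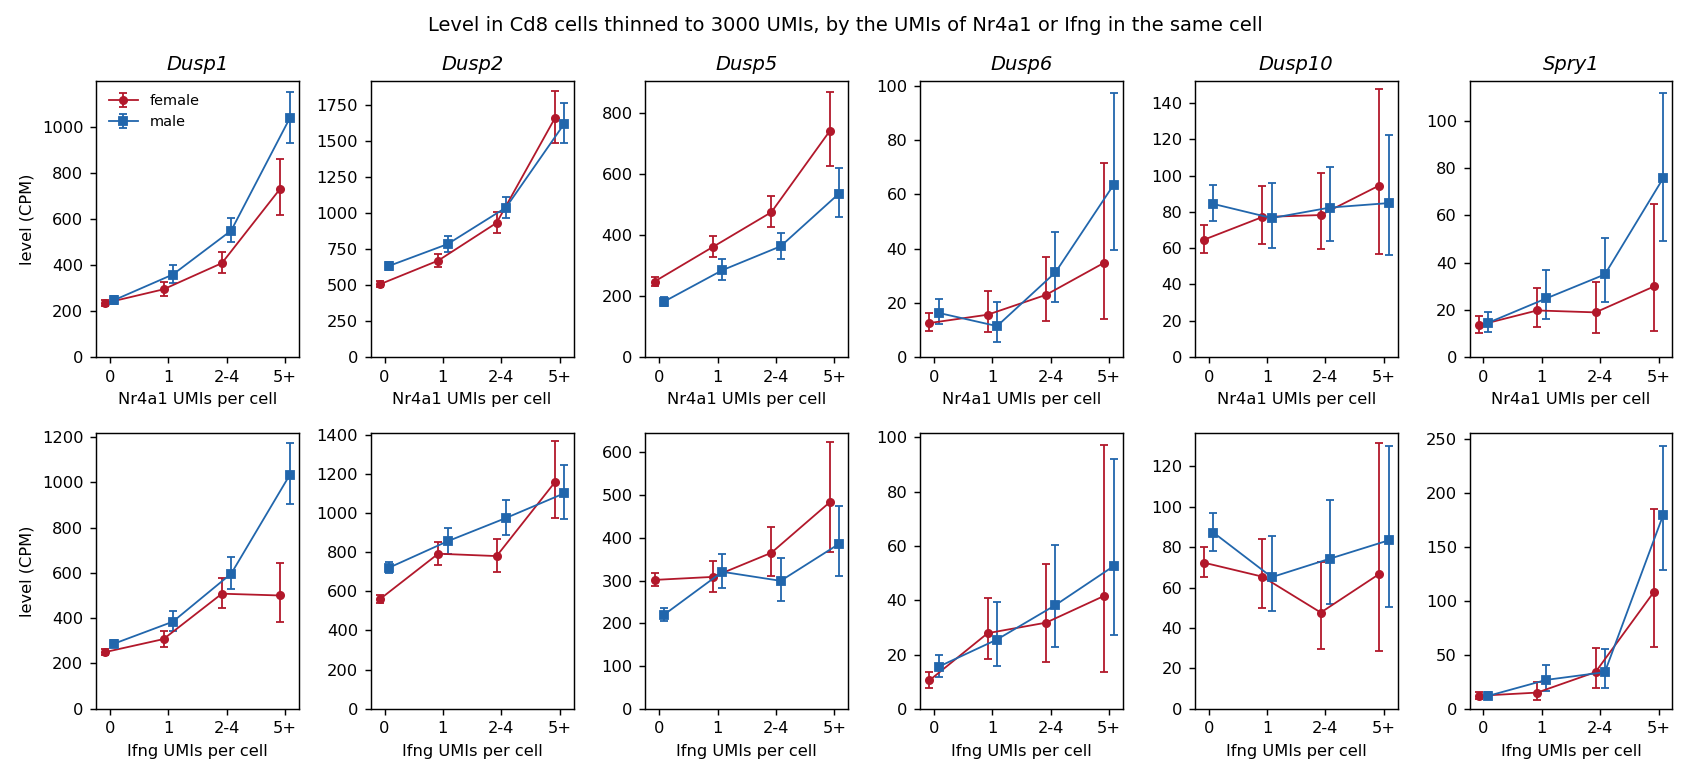
Level (CPM, vertical axis from 0) of 6 genes in Cd8 cells thinned to 3000 UMIs, grouped by the number of Nr4a1 (top) or Ifng (bottom) UMIs in the same cell; circles are the female and squares the male library, with exact 95% counting intervals. Dusp1, Dusp2 and Dusp5 climb with Nr4a1, Spry1 climbs most with Ifng (to 108 and 180 CPM), and Dusp10 is flat.

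The genes most like each of the 9 across Cd8 cells were found by the mean over libraries of the within-library Pearson's r, among 9086 genes seen in at least 5% of the 2245 female and of the 1940 male cells. Dusp1 was most like Fos (0.48 in each library), Junb (0.43 and 0.38) and Zfp36 (0.39 and 0.37). Dusp2 was most like Zfp36l2 (0.40 and 0.39), Smad7 (0.37 and 0.32) and Btg1. Dusp4 was most like Rgs16 (0.36 and 0.40), the inhibitory receptor gene Lag3 (0.33 and 0.40) and Tnfrsf4. Dusp5 was most like Nr4a1 (0.31 and 0.33), Ccl5 (0.34 and 0.29) and Tnfaip3. The remaining lists were led by lower values: Spry1 by Ccl3 (0.23 and 0.22), Ifng (0.18 and 0.26) and Dusp4 (0.17 and 0.25), Dusp10 by Fam241a (0.19 and 0.24) and Zeb1 (0.16 and 0.21), Dusp16 by Myo10 (0.21 and 0.24), Dusp6 by Ifng (0.16 and 0.22), and Spry2 by Bhlhe40 (0.10 and 0.10). In Treg cells Fos again led for Dusp1 (0.41 and 0.51), followed by Jun and Jund, and Nr4a1 led for both Dusp4 (0.19 and 0.24) and Dusp5 (0.22 and 0.25). Dusp16 was there most like Tbx21 (0.18 and 0.26), and Dusp2 most like Zfp36 (0.24 and 0.26). Among the 9 genes themselves, the closest pair in Cd8 cells by the mean over libraries was Dusp2 and Dusp5 (0.32 and 0.23, or 0.23 and 0.20 after thinning). In the male library alone, with all UMIs, Dusp4 and Spry1 were closer (0.25). Dusp2 and Dusp4 had -0.09 and -0.08, and -0.0078 and -0.02 after thinning.

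Further splits placed single genes more closely. Among Cd8 cells divided by Tcf7, a factor of naive and memory-like T cells, and by Havcr2, Dusp10 was highest in Tcf7+ Havcr2- cells, at 106 (96.7 to 116) and 110.1 (102 to 119) CPM. The other 3 groups had 52.5 to 66.5 CPM and 51.7 to 67.6 CPM. Within Havcr2- cells, Tcf7+ cells had lower Dusp5 than Tcf7- cells, 226.5 against 274 CPM and 160.0 against 261 CPM, and lower Dusp4, 72.9 against 109 CPM and 52.6 against 86.5 CPM. Their median depth was 7412.5 against 6949.5 UMIs and 7551 against 5636.5 UMIs, and its part in these differences was not tested. Treg cells with and without a Klrg1 UMI, a marker of differentiated effector cells, gave no shared pattern for Dusp4: 279 against 176 CPM in the female and 202 against 235 CPM in the male library.

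Between the libraries, Dusp1 was lower in the female library in all 4 classes, with a female over male log2 ratio of -0.51 (-0.57 to -0.44) in Havcr2+ Cd8, -0.30 (-0.38 to -0.22) in Havcr2- Cd8, -0.77 (-0.88 to -0.67) in Treg and -0.70 (-0.83 to -0.56) in other Cd4 cells. Sex, mouse and library preparation cannot be told apart here. At 1.5-fold, 1 of 8 measured genes was called in Havcr2+ Cd8 cells (1.71% of all genes were, 1.2% lower and 0.509% higher), and 0 in Havcr2- Cd8 cells (3.53%, with 1.96% higher and 1.58% lower). In Treg cells 5 were called (13.7%, with 7.3% higher and 6.37% lower), and in other Cd4 cells 3 (15.7%, with 8.05% higher and 7.7% lower). In Treg cells Dusp1, Dusp2 (-0.89), Dusp16 (-0.85) and Spry1 (-0.92, -1.98 to 0.06) were lower in the female library. Dusp6 was higher there (1.48, 0.53 to 2.50), which rested on the barcode described above: without the Dusp6 UMIs of the richest barcode of each library the ratio was -0.71. In other Cd4 cells Dusp1 and Dusp16 (-1.33, -2.25 to -0.46) were lower and Dusp6 higher (0.72, -0.09 to 1.58). In Havcr2+ Cd8 cells Dusp6 was lower (-0.59, -0.83 to -0.36). Dusp4, Dusp5 and Dusp10 stayed within 1.5-fold in every class. The summed level of the 25 immediate early and ERK target genes was lower in the female library by less than 1.5-fold in each class: 5572 CPM in female and 6524 CPM in male Havcr2+ Cd8 cells, 7464 and 8199 CPM in Havcr2- Cd8, 8902 and 10350 CPM in Treg, and 10690 and 12120 CPM in other Cd4 cells. Single genes of this list went both ways at 1.5-fold: 0 were higher and 7 lower of 20 measured in Havcr2+ Cd8, 0 and 2 of 20 in Havcr2- Cd8, 2 and 2 of 21 in Treg, and 1 and 3 of 21 in other Cd4 cells. Of 8 heat shock genes, Hspa1a and Hspa1b were lower by at least 1.5-fold in the female library in all 4 classes and Hsph1 in other Cd4 cells; no other gene of the 8 was called in these classes. The summed heat shock level was 3388 CPM in female and 3386 CPM in male Treg cells. It was lower in the female library in the other classes: 3478 and 3691 CPM in Havcr2+ Cd8, 3810 and 4015 CPM in Havcr2- Cd8, and 3701 and 4248 CPM in other Cd4 cells. Female cells were also deeper in 3 of the 4 classes, and with cells thinned to 3000 UMIs before the classes were set, 1 of the 5 calls in Treg cells, Dusp2, was left. The part of depth, of the heat shock genes and of the immediate early genes in these differences was not tested further.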

How the data were processed

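Droplet single-cell RNA sequencing of 1 female and 1 male library was analysed. The authors deposited filtered matrices of whole-number UMI counts per gene and cell barcode, written by Cell Ranger 7.0.1 according to their headers (per the file headers, raw UMIs). The submitters' processing notes list GRCm38 and Seurat 5; the strand setting is not given in the sources used here. The libraries held 3658 (female) and 3708 (male) barcodes with 55880364 and 50946624 UMIs; after a minimum of 500 genes and a limit of 10% mitochondrial UMIs, 3468 and 3519 remained. No doublet caller was run; barcodes with Foxp3 and Cd8 UMIs together (396 and 491, median 33232 and 33093 UMIs) stayed outside the classes, and alternatives left out the deepest barcodes or those with markers of other cells.

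UMIs were summed per class and library and scaled to CPM, with exact Poisson and Clopper-Pearson 95% intervals; counts of 0 were set to 3 for bounds. A gene was measured at 10 CPM in a compared group and 20 UMIs, and called at 1.5-fold in both libraries (between libraries, at 1.5-fold). With 1 library per group no test was made. Correlations used log1p of counts per 10000, and thinning drew 3000 UMIs per cell once. The 9 genes are all described; the rule for other names was Nr4a1, the 3 genes most alike per member and, from each pathway list, up to 5 genes with the largest mean log2 ratio and at least 50 UMIs. Further called list genes, Ifng groups and the heat shock genes were named after their values were seen. The members and lists were chosen with earlier results of these data known. Promoters came from RefSeq (GRCm38.p6) and gene positions from GENCODE M21 (32158 of 32285 genes matched). Python 3.11.15, numpy 2.4.6, scipy 1.17.1, pandas 2.3.3, matplotlib 3.10.9 and, for TMM factors, edgeR 4.0.16 in R 4.3.3 were used; the scripts were tested on simulated data.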

Additional observations from a re-analysis of the deposited data

Results flagged for a closer look

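Dusp6 differed between the female and male libraries in opposite directions by class: the female over male log2 ratio of CPM was 1.48 in Treg cells and 0.72 in other Cd4 cells, and -0.59 in Havcr2+ Cd8 cells. The difference between these ratios was not tested. The Treg value came from 32 female and 14 male UMIs, 26 of the 32 in 1 keratin-rich barcode. It was -0.71 without the Dusp6 UMIs of the richest Treg barcode of each library. The value in other Cd4 cells (interval -0.09 to 1.58) was 0.53, under 1.5-fold, without those of the richest barcodes of that class. In the female library this was another barcode, with 8 Dusp6 UMIs and 0 keratin UMIs. The opposite directions thus rest on few UMIs.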

How the results depend on the processing

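Under 17 settings, 335 of 374 values of the 28 called gene differences and correlations stayed past their threshold and 39 did not. The 5 Treg calls, and Dusp1, Dusp4 and Dusp10 in Cd8 over Cd4 cells, were kept under every setting run for them. The 3 calls between Havcr2+ and Havcr2- Cd8 cells became 0 with cells thinned to 3000 UMIs before the classes were set, and 1 with a Cd8 minimum of 4 UMIs, with equal weight per cell or without barcodes above the 90th percentile of UMIs. With 1 library left out, the calls were 3 to 4 in this comparison, 5 to 6 in Treg over other Cd4 and 4 to 7 in Cd8 over Cd4 cells (7 without the female library). For female over male, Havcr2+ Cd8 cells went from 1 call to 2 (thinned, equal weight) or 0 (TMM factors), Havcr2- Cd8 cells from 0 to 2 without barcodes holding markers of other cells, and Treg cells from 5 to 1 (thinned) or 2 (without those barcodes). The female over male log2 ratio of Dusp6 in Treg cells turned from 1.48 to -0.87 where a T cell UMI was asked of every cell. It was -0.10 (thinned), -1.31 (equal weight), -0.26 (without barcodes with other markers) and -1.34 (90th percentile). In alternatives chosen after seeing the data it was -1.29 (marker lists without Cd74, H2-Aa and Pecam1) and -0.71 (without the Dusp6 UMIs of the richest barcode).

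Nr4a1 correlations of at least 0.2 in both libraries went from 3 genes to 1 in Havcr2+ Cd8 cells (thinned before the correlation) and from 2 to 1 in Havcr2- Cd8 cells (thinned before the classes). In Treg cells 1 became 3 (a minimum of 1000 genes, a limit of 5% mitochondrial UMIs), 0 (thinned before the classes; also with the shortened marker lists) or 2 (without the richest barcode), and 1 to 4 with a library left out (4 without the female library). Dusp5 in Treg cells missed 0.2 in 1 or both libraries in 5 of 13 settings, among them Spearman's correlation, where Dusp4 reached it. In other Cd4 cells 1 became 2 (no cell filter) or 0 (thinned either way), and 2 to 3 with a library left out (3 without the female library). The cause of these moves was not tested beyond the depth groups given for Cd8 cells, which were added after seeing the data. A planned search for the phosphatase signature in protein sequences was not run. No paired analysis was possible because each sex has 1 library and no test was made.

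Dusp6, Dusp16, Spry1 and Spry2 rest on few UMIs in the Cd4 classes, and a difference within their intervals was not detectable at this depth. Intervals cover counting error only.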
